A study of Mus musculus with 11 samples.

Results

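The 9 genes described here encode 7 receptor tyrosine kinases that are known as bypass routes around HER2, the hepatocyte growth factor receptor Met, the macrophage-stimulating protein receptor Mst1r (RON), the TAM receptors Axl, Tyro3 and Mertk and the discoidin domain receptors Ddr1 and Ddr2, together with 2 ligands, Hgf and Gas6. They were found by their symbols among the 21846 genes of the count table, and all 9 had a row. RNA was sequenced in 11 libraries of mammary carcinoma lines from virgin female FVBhuHER2 mice, which carry a human HER2 transgene. The labels do not say whether each library came from a separate culture, and a culture here stands for the cells of 1 library. MamBo89, the HER2-stable line, came from 1 tumor, called A. MamBo43, the HER2-labile line, came from another tumor, called B, and MamBo38, the HER2-loss line, came from a tumor that grew from injected MamBo43 cells. The 5 HER2-positive libraries were untreated MamBo43 (n = 1) and MamBo89 (n = 4: untreated cells, an untreated culture labelled AG3 that was taken as the clone the methods list, and cells under both trastuzumab schedules). The 6 HER2-negative libraries were MamBo38 (n = 4: 2 untreated cultures and 1 under each schedule) and MamBo43 cells that had lost HER2 under trastuzumab (MamBo43 TRT, n = 2). Trastuzumab, an antibody to human HER2, was given at 30 µg/ml, either for 60 days or for 30 days followed by 30 days without it. Only 1 HER2-positive library came from tumor B. The study describes remaining HER2-positive cells in MamBo43 cultures under trastuzumab.

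Hepatocyte growth factor is secreted as an inactive chain that serine proteases cleave before it can activate Met, and macrophage-stimulating protein activates Mst1r in the same way. Gas6 bridges the TAM receptors to phosphatidylserine and needs vitamin K-dependent carboxylation. Discoidin domain receptors are bound by collagen, Ddr1 being typical of epithelia and Ddr2 of mesenchymal cells.

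Total counts ranged from 17040454 to 27127662 (median 20592201), and 3 counts, taken as the detection floor, corresponded to 0.114 to 0.179 CPM (counts relative to library sizes adjusted by the TMM method). Mouse Erbb2, which is not the transgene, averaged 21.8 ± 5.25 CPM across the HER2-negative libraries (SD, n = 6). Across the HER2-positive ones it averaged 147 ± 20.7 CPM (n = 5), without overlap. Reads were aligned to the mouse genome, and whether reads of the human transgene were counted as mouse Erbb2 was not tested. The summed level of 14 epithelial markers was 2.02 to 3.56 CPM in MamBo38, 497 to 2880 in MamBo43 TRT and 3410 to 4680 in HER2-positive libraries. That of 11 mesenchymal markers was 20900 to 41300 CPM in HER2-negative and 336 to 2480 CPM in HER2-positive libraries. As these are bulk samples, fewer cells of a type and less RNA per cell cannot be told apart in any level given here.

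HER2-negative and HER2-positive cells differed in both collagen receptors, in Tyro3 and in Gas6 without overlap of the libraries. Ddr2 was 242-fold higher by the group means and Ddr1 lower in HER2-negative cells, Gas6 fell to 1.17 CPM or less in MamBo38 and to an intermediate level in MamBo43 TRT, and Tyro3 and Mertk were lower. Hgf was detected at more than traces only in MamBo38 libraries. Met and Axl were high in all 7 libraries of tumor B, untreated HER2-positive MamBo43 included, and lower in MamBo89. Of the 9 genes, 7 had enough counts for the test across 6 HER2-negative and 5 HER2-positive libraries, and all 7 were called by edgeR's quasi-likelihood test, a call needing an adjusted p below 0.1 together with a log2 fold change of 1 or more in size. Among all 12364 genes tested, 32.8% were called, 15.8% higher and 17% lower in HER2-negative libraries. Met, Axl and Ddr2 were called higher and Mertk, Tyro3, Gas6 and Ddr1 lower, and in 4 of the 7 the groups did not overlap, as in 34.9% of all genes tested.

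**Figure D1:**
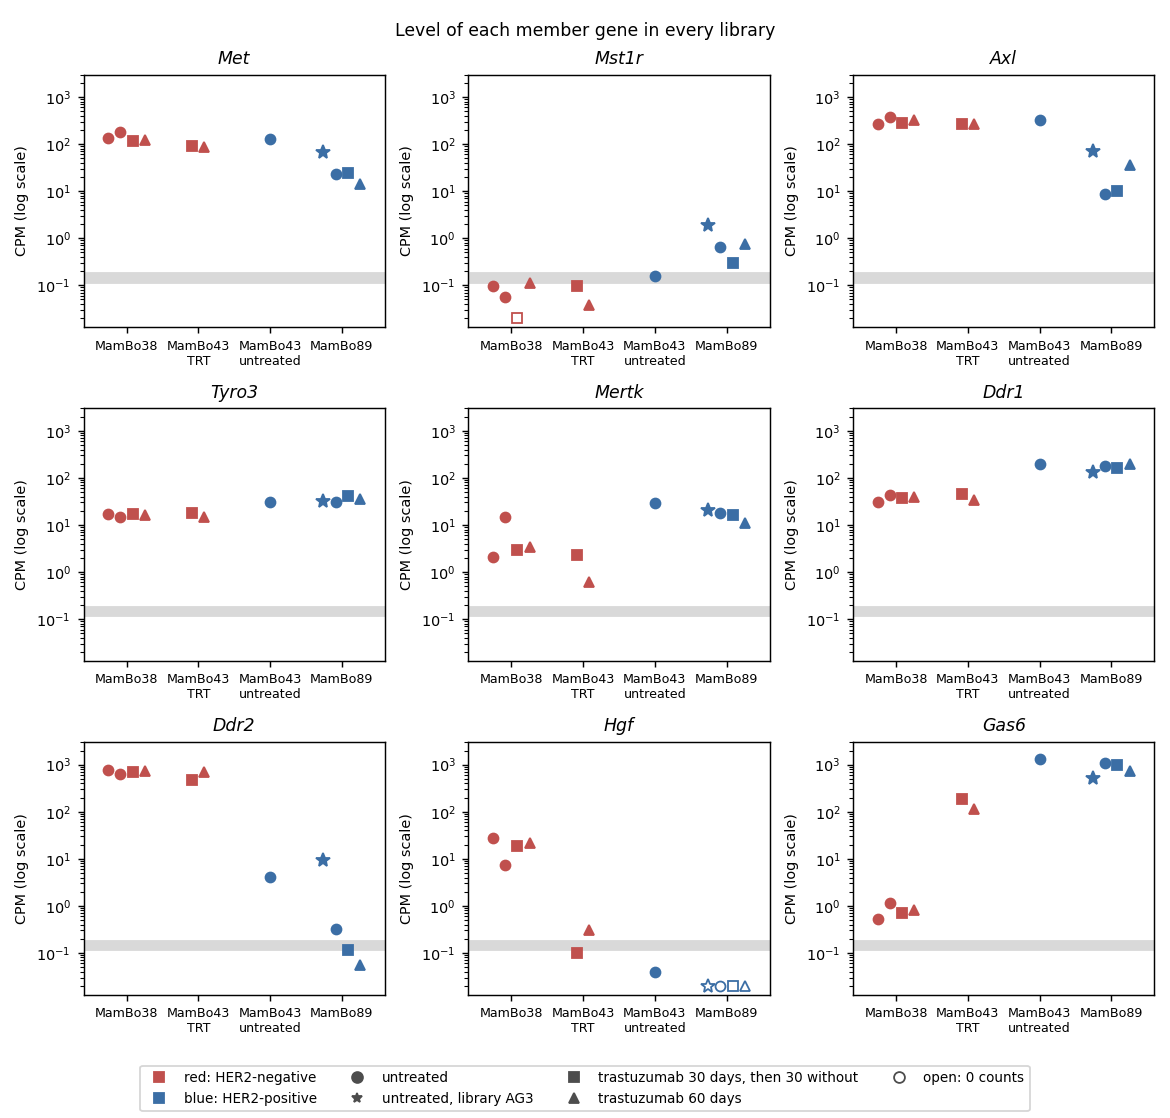
Level of the 9 genes in every library, in CPM on a log axis, by line and HER2 status. Each symbol is 1 library, colour gives HER2 status, the shape gives treatment, open symbols at the bottom stand for 0 counts, and the grey band is the level of 3 counts (0.114 to 0.179 CPM). Ddr2 and Ddr1 separate red from blue libraries in opposite directions, whereas Axl and Met separate MamBo89 from the other lines.

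The discoidin domain receptors changed places. Ddr2 (chr1:169972307-170110762, minus strand, GRCm38) was at 776 and 642 CPM in untreated MamBo38, 685 after withdrawal and 731 under continued trastuzumab, and at 473 and 683 CPM in MamBo43 TRT after withdrawal and at 60 days. It was at 4.03 CPM in untreated MamBo43, 9.2 in the AG3 culture and 0.0544 to 0.322 CPM (1 to 7 counts) in the 3 other MamBo89 libraries. Every HER2-negative library was thus far above every HER2-positive one, with group means of 665 ± 105 CPM (SD, n = 6) and 2.75 ± 3.98 CPM (n = 5). The log2 fold change was 7.91 (SE 1.22, edgeR adjusted p = 0.000298), and 9.14 (edgeR adjusted p = 0.000196) without the AG3 culture. Within tumor B, where origin is shared, Ddr2 was called higher both in MamBo43 TRT (log2 fold change 7.16, SE 2.15, edgeR adjusted p = 0.0288) and in MamBo38 (7.45, SE 2.15, edgeR adjusted p = 0.0176) against the single untreated MamBo43 library. Both calls use the spread of the other groups for that library. In a fit of the libraries that share a code in their names the fold changes were 7.16 and 7.32, with edgeR adjusted p = 0.112 and 0.108. MamBo43 TRT and MamBo38 did not differ detectably in Ddr2 (log2 fold change -0.29, SE 1.03, edgeR adjusted p = 0.862).

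Ddr1 (chr17:35681567-35704621, minus strand) went the other way. Its level was 30.3 and 43.1 CPM in untreated MamBo38, 37.8 and 38.7 in treated MamBo38, and 46.1 and 34.2 CPM in MamBo43 TRT. HER2-positive libraries held 202 CPM in untreated MamBo43, 136 in the AG3 culture, and 162, 177 and 201 CPM in the other MamBo89 libraries. The lowest HER2-positive library lay well above the highest HER2-negative one, and the log2 fold change of -2.20 had the smallest error for its size among the 7 tested genes (SE 0.15, edgeR adjusted p = 1.9e-06). Against untreated MamBo43, Ddr1 was called lower in MamBo43 TRT (-2.33, SE 0.27, edgeR adjusted p = 0.000266) and in MamBo38 (-2.43, SE 0.22, edgeR adjusted p = 1.55e-05), and it did not differ detectably between those 2 groups (0.10, SE 0.20, edgeR adjusted p = 0.742).

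Per kilobase of exons, the scale on which genes can be compared, Ddr2 made up 88.5 to 93% of the summed Ddr1 and Ddr2 level in MamBo38 and 84.1 to 91.2% in MamBo43 TRT. It made up 1.02% in untreated MamBo43 and 0.014 to 3.38% in MamBo89. The sum itself was 60.7 to 90.1 CPM per kb in HER2-negative libraries and 29.4 to 42.8 CPM per kb in HER2-positive ones. Ddr1 therefore remained measurable in every HER2-negative library while Ddr2 was near the floor in 2 of the MamBo89 libraries.

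Stretches upstream of annotated start sites are shown for both genes because the genes moved in opposite directions in the same libraries. The stretches are the 250 bases upstream of a RefSeq start site on GRCm38.p6, written 5′ to 3′ on the strand of the gene, and all 9 genes matched the table. Capitals mark an AP-1 element (TGACTCA or TGAGTCA), an E-box of the type bound by Zeb and Snai factors (CACCTG or CAGGTG) or a TEAD element (GGAATG or CATTCC), searched on both strands over the 300 bases around each start. For Ddr1, start site 3 of 4 is shown (chr17:35702045-35702294), and for Ddr2 the only one listed (chr1:170088945-170089194). Both stretches lie inside the gene spans given above. The 5′ end of the Ddr2 span (chr1:170110762) is upstream of the Ddr2 stretch, and which start sites these cells used was not tested.
Ddr1: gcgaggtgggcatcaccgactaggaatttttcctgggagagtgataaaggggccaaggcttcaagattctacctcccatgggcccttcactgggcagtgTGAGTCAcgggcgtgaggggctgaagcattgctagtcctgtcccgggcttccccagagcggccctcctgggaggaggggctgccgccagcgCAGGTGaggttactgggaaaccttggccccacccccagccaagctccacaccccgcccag
Ddr2: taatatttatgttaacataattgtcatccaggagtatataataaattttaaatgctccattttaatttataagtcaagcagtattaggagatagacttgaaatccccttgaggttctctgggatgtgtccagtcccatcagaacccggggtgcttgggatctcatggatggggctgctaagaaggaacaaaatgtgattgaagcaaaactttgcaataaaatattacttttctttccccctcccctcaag
The Ddr1 stretch held an AP-1 element starting 151 bases and an E-box starting 60 bases upstream of the start, and it was printed for these matches, as the windows of the 3 other Ddr1 start sites held none of the motifs. In the Ddr2 stretch none of the 3 motifs was present, and it was poor in G and C (37.6%, against a median of 52.4% over 32851 windows), with a CpG content of 0.113 of that expected (median 0.374). An AP-1 element occurred in 5.2%, the E-box in 20.2% and the TEAD element in 14.7% of all windows, and in 2, 2 and 1 of the 14 windows of the 9 genes. These matches are descriptions of sequence, chosen after expression was known.

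**Figure D2:**
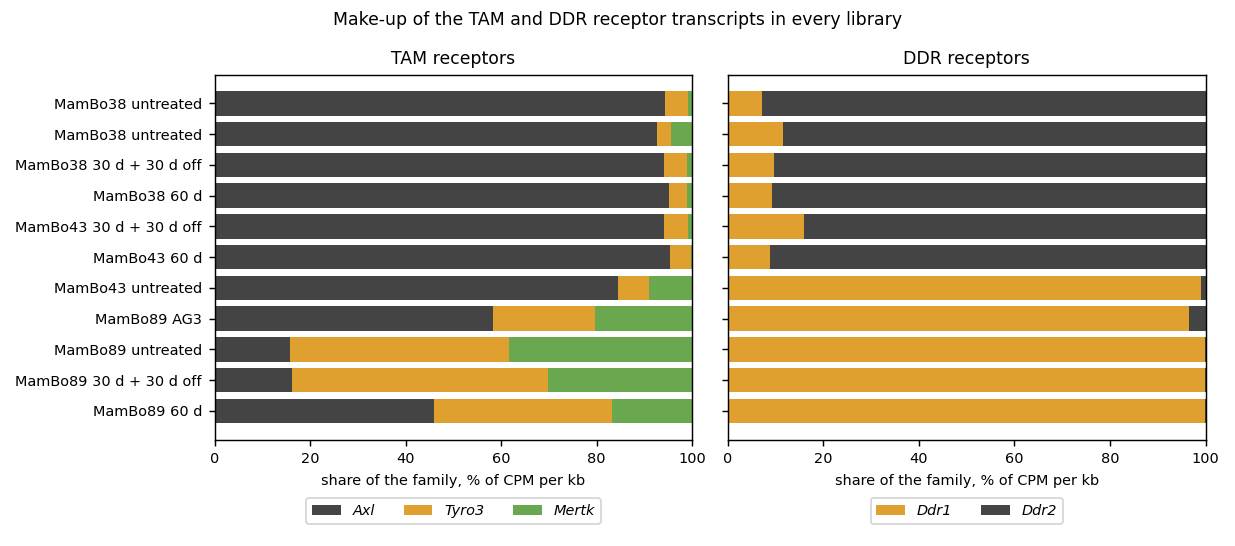
Share of each receptor in the summed level of its family, in % of CPM per kilobase of exons, for TAM receptors (left) and discoidin domain receptors (right). Each bar is 1 library (d, days in trastuzumab; AG3, the culture taken as the clone). Ddr2 forms 84.1 to 93% of its family in the HER2-negative libraries and at most 3.38% in the others, and Axl forms 84.6% or more of the TAM receptors in all tumor B libraries.

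Axl, a TAM receptor often raised in mesenchymal and drug-resistant tumor cells, separated the libraries by tumor and not by HER2 status. Each tumor is represented by its own lines, so tumor and line cannot be told apart. Its level (chr7:25757273-25788705, minus strand) was 266 and 371 CPM in untreated MamBo38, 280 and 329 in treated MamBo38, 270 and 268 in MamBo43 TRT and 326 CPM in untreated MamBo43. In MamBo89 it was 69.8 CPM in the AG3 culture, 8.75 in untreated cells, 10 after withdrawal and 35.1 CPM at 60 days. The lowest tumor B library was above the highest MamBo89 library, and 24.7% of the 12364 genes tested also did not overlap between these groups, in either direction. The HER2-positive MamBo43 library lay inside the range of the HER2-negative ones.

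For Axl the comparison of HER2-negative with HER2-positive libraries gave a log2 fold change of 1.72 (SE 0.81, edgeR adjusted p = 0.0973), with overlapping groups. When the fit included the tumor the lines came from, the value was -0.14 (edgeR adjusted p = 0.914), and leaving out a single library ended the call in 10 of 11 cases. The exception was untreated MamBo43, without which the value was 3.26 (edgeR adjusted p = 0.000766). Untreated MamBo43 was called higher than MamBo89 by 3.40 on the log2 scale (SE 0.74, edgeR adjusted p = 0.00939), and by 4.23 without the AG3 culture (edgeR adjusted p = 0.000327). In this comparison 18.9% of 13782 genes were called, and Axl and Met were the 2 called among the 9. Without the AG3 culture Ddr2 was called too, its log2 difference moving from 0.71 (edgeR adjusted p = 0.776) to 4.54 (SE 0.43, edgeR adjusted p = 4.69e-05). Within tumor B, Axl changed by -0.28 (SE 0.92) in MamBo43 TRT and by -0.07 (SE 0.85) in MamBo38 against untreated MamBo43, and neither passed the test (edgeR adjusted p = 0.846 and 0.959).

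The 250 bases upstream of the Axl start site (chr7:25788734-25788983, minus strand) are shown for a gene that stayed high through the loss of HER2.
Axl: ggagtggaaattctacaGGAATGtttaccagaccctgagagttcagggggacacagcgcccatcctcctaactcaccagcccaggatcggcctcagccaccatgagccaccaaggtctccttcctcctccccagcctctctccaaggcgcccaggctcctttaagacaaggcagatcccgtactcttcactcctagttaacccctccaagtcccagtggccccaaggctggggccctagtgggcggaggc
They held a TEAD element starting 233 bases upstream, and neither of the other motifs.

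Tyro3 and Mertk, the other TAM receptors, were lower in HER2-negative cells. Tyro3 (chr2:119797733-119818104, plus strand) was at 14.8 to 17.6 CPM in the 6 HER2-negative libraries (median 16.5) and at 30.9, 31.2, 31.6, 35 and 41 CPM in the 5 HER2-positive ones, the first of these being untreated MamBo43. These groups did not overlap, and the spread within each was narrow (16.3 ± 1.20 and 33.9 ± 4.28 CPM, SD). The log2 fold change was -1.06 (SE 0.12, edgeR adjusted p = 4.27e-05), which lies close to the fold minimum and falls short of it (-0.99) without the MamBo89 library taken after withdrawal. In MamBo43 TRT and MamBo38 the differences from untreated MamBo43 were -0.93 and -0.92 (edgeR adjusted p = 0.0109 and 0.0035), which passed the threshold on p but not the minimum on fold.

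Mertk (chr2:128698956-128802894, plus strand), the TAM receptor known for clearing dead cells, was at 29.7 CPM in untreated MamBo43, 21 in the AG3 culture and 11.1 to 18.3 CPM in the other MamBo89 libraries. Its level was 2.25 and 0.614 CPM in MamBo43 TRT after withdrawal and at 60 days. In MamBo38 it was 2.07 CPM in the untreated culture whose library code occurs in MamBo38 only, 2.98 and 3.34 CPM in the treated ones and 15 CPM in the untreated culture with the code shared by the other lines. That last culture reached into the HER2-positive range, and the rest of the HER2-negative libraries stayed below it.

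The Mertk log2 fold change between HER2-negative and HER2-positive libraries was -2.14 (SE 0.66, edgeR adjusted p = 0.0183), and with the library code as a covariate it was -1.70 (edgeR adjusted p = 0.113). Without the untreated MamBo38 culture at 15 CPM it was -3.09 (edgeR adjusted p = 0.000346). Against untreated MamBo43 it was -4.39 (SE 1.06, edgeR adjusted p = 0.0111) in MamBo43 TRT and -2.35 (SE 0.83, edgeR adjusted p = 0.0422) in MamBo38, the second being -0.98 (edgeR adjusted p = 0.395) among libraries of the shared code and -3.41 (edgeR adjusted p = 0.000757) without that culture. The first ranged from -5.61 without the MamBo43 TRT library taken after withdrawal to -3.72 without the one at 60 days. As Mertk is also a macrophage gene, 11 leukocyte markers were summed. They reached 8.21 to 61.7 CPM in HER2-negative and 76.7 to 427 CPM in HER2-positive libraries, nearly all from Cd14 and Cd68, while Ptprc and Adgre1, which define leukocytes and macrophages, were at 0 counts in every HER2-positive library.

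Per kilobase, Axl made up 92.7 to 95.1% of the TAM receptor level in MamBo38, 94.1 to 95.4% in MamBo43 TRT and 84.6% in untreated MamBo43. In MamBo89 it made up 15.8 to 58.2%, with Tyro3 at 21.4 to 53.6% and Mertk at 16.9 to 38.4%. The TAM sum was 55.9 to 79.6 CPM per kb in tumor B and 11 to 23.8 CPM per kb in MamBo89.

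Gas6, the ligand of these receptors, fell into 3 separate ranges. Its level (chr8:13465374-13494490, minus strand) was 1340 CPM in untreated MamBo43, 520 in the AG3 culture and 735, 1000 and 1070 CPM in the other MamBo89 libraries. It was 0.528 and 1.17 CPM in untreated MamBo38 and 0.716 and 0.835 CPM in treated MamBo38 (11 to 22 counts), and 191 and 112 CPM in MamBo43 TRT after withdrawal and at 60 days. HER2-positive libraries, MamBo43 TRT and MamBo38 thus did not overlap. Untreated MamBo43 was 1650-fold above MamBo38 and 8.84-fold above MamBo43 TRT.

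Gas6 was called lower in HER2-negative libraries (log2 fold change -4.20, SE 1.53, edgeR adjusted p = 0.0383), a group in which MamBo38 and MamBo43 TRT lay far apart. With the tumor in the fit the call was lost (-4.72, edgeR adjusted p = 0.107), as it was in tumor B alone (-4.74, edgeR adjusted p = 0.193). The log2 fold change was -10.16 in untreated libraries only (edgeR adjusted p = 0.00243) and -5.34 without the MamBo43 TRT library taken after withdrawal (edgeR adjusted p = 0.0192). Against untreated MamBo43, it was lower in MamBo38 (log2 fold change -10.69, SE 0.43, edgeR adjusted p = 2.74e-07) and in MamBo43 TRT (log2 fold change -3.15, SE 0.43, edgeR adjusted p = 0.000685). MamBo43 TRT was above MamBo38 (log2 fold change 7.54, SE 0.38, edgeR adjusted p = 2.85e-06), also among libraries of the shared code (log2 fold change 7, edgeR adjusted p = 0.00916). The summed epithelial markers ordered these groups in the same way, at 2880 and 497 CPM in the 2 MamBo43 TRT libraries with 191 and 112 CPM of Gas6, and the part of remaining epithelial or HER2-positive cells in the Gas6 level was not tested.

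Met, the receptor of hepatocyte growth factor, was also higher in tumor B than in MamBo89. It stood (chr6:17463800-17573980, plus strand) at 136 and 183 CPM in untreated MamBo38, 117 and 124 in treated MamBo38, 88.7 and 86.2 in MamBo43 TRT and 126 CPM in untreated MamBo43. In MamBo89 it was 67.5 CPM in the AG3 culture, 22.7 in untreated cells, 24.6 after withdrawal and 14 CPM at 60 days. Again each tumor B library was above each MamBo89 library, so that HER2-negative and HER2-positive groups overlapped through untreated MamBo43.

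The Met log2 fold change was 1.26 (SE 0.52, edgeR adjusted p = 0.0598) between HER2-negative and HER2-positive libraries and -0.05 (edgeR adjusted p = 0.966) in the fit that included the tumor. Leaving out a single library ended this call in 4 of 11 cases, and without untreated MamBo43 the value was 1.92 (edgeR adjusted p = 0.00291). Untreated MamBo43 exceeded MamBo89 by 1.96 (SE 0.56, edgeR adjusted p = 0.0334), and by 2.67 without the AG3 culture (edgeR adjusted p = 7.66e-05), with the call lost among libraries of the shared code at a fold change of 1.96 (edgeR adjusted p = 0.105). MamBo43 TRT and MamBo38 differed from untreated MamBo43 by -0.53 (SE 0.67) and 0.15 (SE 0.63), neither past the test (edgeR adjusted p = 0.585 and 0.869).

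The stretch upstream of the Met start site (chr6:17463707-17463956, plus strand) is given because Met, like Axl, was higher in every tumor B library than in any MamBo89 library.
Met: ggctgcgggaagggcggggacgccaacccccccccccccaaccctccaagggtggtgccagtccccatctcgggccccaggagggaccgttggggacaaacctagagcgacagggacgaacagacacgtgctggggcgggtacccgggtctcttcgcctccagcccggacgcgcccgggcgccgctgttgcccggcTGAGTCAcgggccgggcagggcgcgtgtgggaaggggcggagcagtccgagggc
It held an AP-1 element starting 54 bases upstream of the start, and an E-box lay 25 bases downstream, outside the printed stretch.

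Hgf, the ligand of Met, was detected at a substantial level in MamBo38 alone. Its values (chr5:16553495-16620152, plus strand) were 28.2 CPM (588 counts) and 7.51 CPM (135 counts) in untreated MamBo38 with the code of that line alone and with the shared code, and 19 and 22 CPM in treated MamBo38. MamBo43 TRT had 2 and 8 counts (0.098 and 0.307 CPM), untreated MamBo43 had 1 count (0.0391 CPM), and no count was found in the 4 MamBo89 libraries. MamBo38 was at least 110-fold higher than MamBo89, computed against 3 counts in the MamBo89 library with the highest floor (0.175 CPM). Against 10 pooled counts in MamBo43 TRT, MamBo38 was 92-fold higher (95% counting interval 49.9 to 192), and against the 1 count in untreated MamBo43 it was 506-fold higher (90.7 to 20000). These intervals cover counting error only.

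Because it was present in 4 libraries, Hgf did not pass the count filter for the comparison of 6 with 5 libraries. In the fit of 4 groups it was called higher in MamBo38 than in untreated MamBo43 and lower in MamBo43 TRT than in MamBo38. Hgf entered this fit only through MamBo38, the group where it was high, so these calls add nothing to the counts. The fitted fold changes of 8.73 and -6.47 depend on the prior count, as the low groups hold 1 to 8 counts in a library. Met was thus present together with Hgf transcripts in MamBo38, and without more than traces of them in the other tumor B libraries.

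Mst1r (chr9:107906873-107920383, plus strand), the receptor of macrophage-stimulating protein, was close to or below the floor nearly everywhere. It had 0 to 3 counts in each HER2-negative library, 4 in untreated MamBo43, 5 to 14 in 3 MamBo89 libraries and 40 counts (1.95 CPM) in the AG3 culture. Over pooled counts, MamBo89 was 11.1-fold above the tumor B libraries (95% counting interval 6.11 to 21.9), and without the AG3 culture 6.82-fold (3.50 to 14.1). The fitted difference between untreated MamBo43 and MamBo89 was not called (log2 fold change -2.50, edgeR adjusted p = 0.174). The gene did not pass the count filter in the comparison of HER2-negative with HER2-positive libraries, and DESeq2, which had no such filter, called it lower in HER2-negative ones (log2 fold change -3.46, adjusted p = 0.000356).

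**Figure D3:**
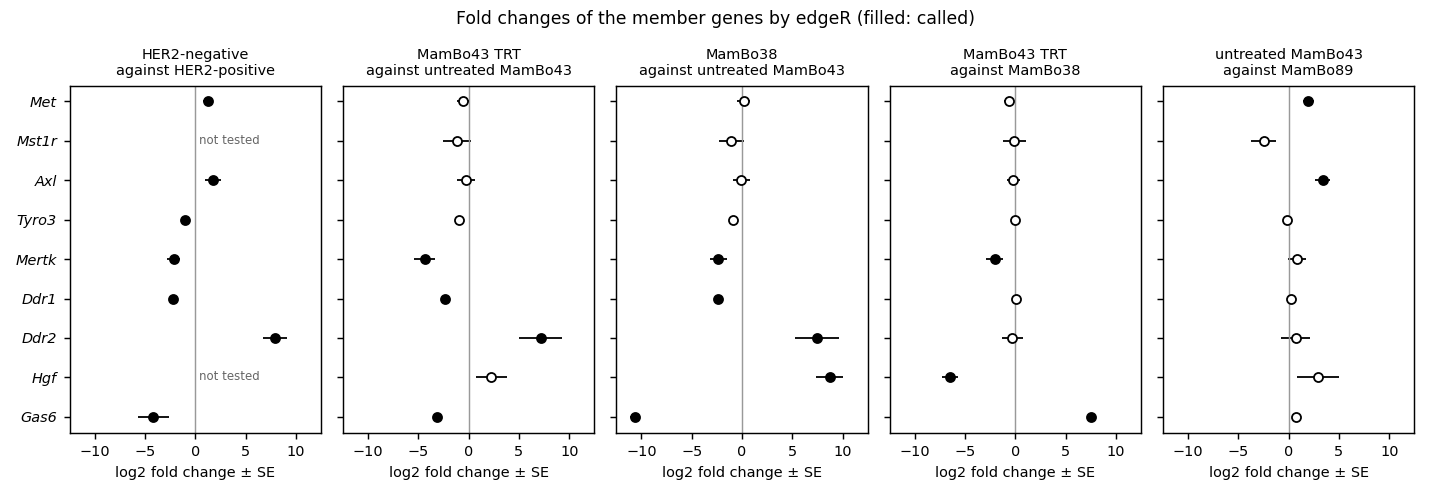
Log2 fold changes (points) with SE (bars) of the 9 genes in 5 comparisons by edgeR's quasi-likelihood test. Filled points met both limits of a call (adjusted p below 0.1, log2 fold change of 1 or more in size), and genes without enough counts are marked as not tested. Ddr2, Ddr1, Mertk and Gas6 are called in each of the first 3 comparisons, Axl and Met in the first and the last.

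In MamBo43 TRT against untreated MamBo43, 29.1% of 13782 genes were called, and 4 of the 9 were among them (Ddr2 higher, Mertk, Gas6 and Ddr1 lower). In MamBo38 against the same library 35.9% were called, with 5 of the 9 (Hgf and Ddr2 higher, Mertk, Gas6 and Ddr1 lower). These comparisons share their control, so the overlap is not separate evidence. Between MamBo43 TRT and MamBo38 20.4% were called, with Hgf and Mertk lower and Gas6 higher in MamBo43 TRT. The Mertk call (-2.04, SE 0.85, edgeR adjusted p = 0.0962) was lost without the untreated MamBo38 culture at 15 CPM (-0.99, edgeR adjusted p = 0.178) and without either MamBo43 TRT library (edgeR adjusted p = 0.109 and 0.412). In MamBo38, 3 libraries carry a code that no MamBo43 library has, so line and code cannot be told apart except through the 1 other MamBo38 library.

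Trastuzumab within MamBo89 or within MamBo38, with 2 treated and 2 untreated libraries each, gave no called member. There edgeR called 0% of 12046 and 0% of 11861 genes (186 and 503 at an unadjusted p under 0.05), and DESeq2 called 9 and 5. The 2 untreated MamBo89 cultures differed widely from each other in the kinases: the AG3 culture had 69.8 CPM of Axl against 8.75, 67.5 of Met against 22.7 and 9.2 of Ddr2 against 0.322. Without the AG3 culture the Axl difference was 1.39 on the log2 scale, and with the AG3 culture as the only untreated library it was -1.64 (edgeR adjusted p = 1 and 0.000918). In MamBo38, the Hgf difference was -0.48 (edgeR adjusted p = 0.384) without the untreated culture of the shared code and 1.46 (edgeR adjusted p = 3.19e-05) without the other untreated culture. Each of these values rests on a single untreated culture, and culture and treatment cannot be told apart in it.

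Among 58 receptor tyrosine kinase genes ranked per kilobase, Ddr2 and Axl ranked 2 and 3 in MamBo38 (76.5 ± 6.24 and 61.9 ± 9.58 CPM per kb, SD, n = 4) and 1 and 3 in MamBo43 TRT (62.4 ± 16.1 and 53.5 ± 0.182 CPM per kb, n = 2). The values of Ddr2 and Axl overlapped across the libraries of each of these groups, so their order is not resolved. Axl ranked 3 and Ddr1 6 in untreated MamBo43 (64.8 and 42.3 CPM per kb), where Ddr2 ranked 30. In MamBo89, Ddr1 ranked 5 (35.4 ± 5.71 CPM per kb), Axl 15, Tyro3 16, Met 17 and Mertk 19, the last 4 lying between 3.84 and 6.14 CPM per kb with overlapping spreads. Met ranked 9 in MamBo38, 12 in MamBo43 TRT and 13 in untreated MamBo43.

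**Figure D4:**
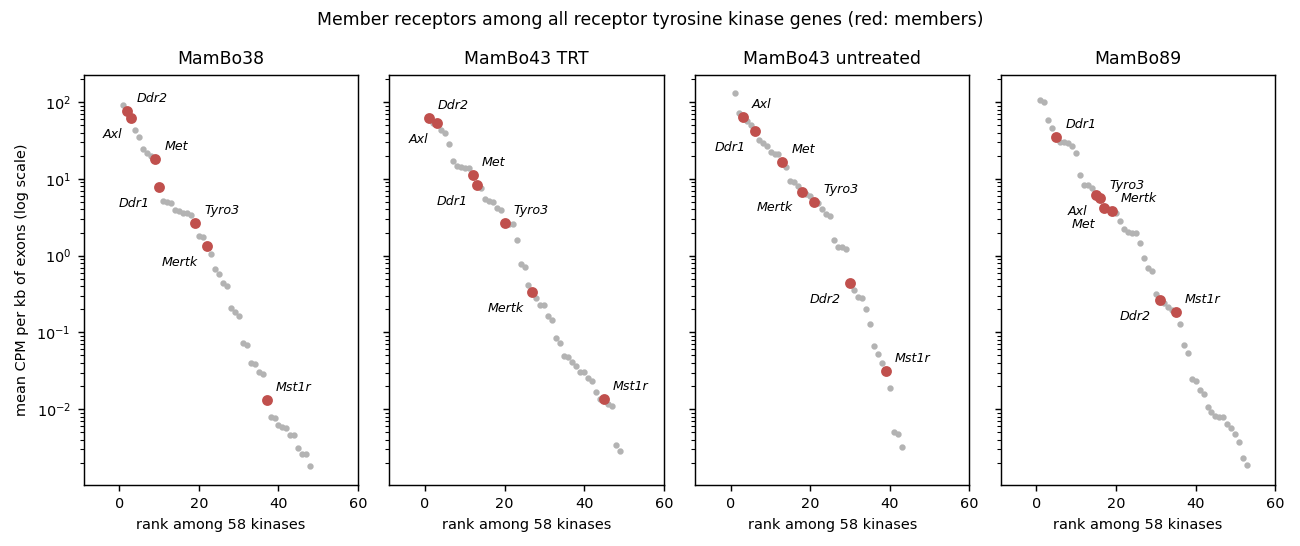
Mean level of 58 receptor tyrosine kinase genes in each group, in CPM per kilobase of exons on a log axis, against their rank. Red points are the 7 member receptors and grey points the other 51 kinases, and genes at 0 are not drawn. Ddr2 and Axl are among the 3 highest kinases in MamBo38 and MamBo43 TRT, and Ddr2 falls to rank 30 or 31 in untreated MamBo43 and MamBo89.

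Genes that act with these receptors were taken from lists made with the members. Over all genes tested, the median log2 fold change between HER2-negative and HER2-positive libraries was -0.04. Of these genes 15.8% were called higher and 17% lower, the shares beside which the counts of each list below stand. Of 6 tested genes that process hepatocyte growth factor and macrophage-stimulating protein, 1 was called higher and 5 lower (median -3.91). The one that rose was Plau, the urokinase (50.4 ± 23.5 CPM in HER2-negative and 2.53 ± 3.18 CPM in HER2-positive libraries, log2 fold change 4.29, SE 0.74, edgeR adjusted p = 0.000625). The membrane proteases Tmprss13 (0.244 ± 0.51 against 66.6 ± 37.9 CPM, log2 fold change -8.06, SE 1.19) and Hpn, hepsin (4.44 ± 8.24 against 84.6 ± 94.7 CPM, -4.25, SE 1.49), and St14, matriptase (-4.19, SE 1.58), fell, as did the inhibitors of these proteases Spint1 (-3.28, SE 1.55) and Spint2 (-3.64, SE 1.60), with edgeR adjusted p from 0.000229 to 0.0955.

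Of 5 tested genes for other TAM ligands and for carboxylation, Lgals3, galectin-3 (1360 ± 241 against 171 ± 89.5 CPM, log2 fold change 2.99, SE 0.38, edgeR adjusted p = 7.83e-05), and Pros1, protein S (1.3, SE 0.43, edgeR adjusted p = 0.0247), were higher in HER2-negative libraries, and none was lower (median 0.62). Ggcx and Vkorc1, which serve the carboxylation of Gas6, had log2 fold changes of 0.39 and 0.62 and were not called. Pros1 thus went opposite to Gas6, although the Pros1 groups overlapped.

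Among 9 tested collagen genes, ligands of Ddr1 and Ddr2, 7 were called higher and 1 lower (median 3.59). Col1a2, a chain of type I collagen, was at 3480 ± 1060 CPM in HER2-negative and 19.6 ± 43.8 CPM in HER2-positive libraries (log2 fold change 7.46, SE 2.18, edgeR adjusted p = 0.0139), and Col3a1 at 480 ± 117 and 4.63 ± 10.2 CPM (6.67, SE 1.66, edgeR adjusted p = 0.00606). Col2a1, cartilage collagen, was the one that fell (0.868 ± 0.626 against 18.5 ± 31.1 CPM, -4.40, SE 0.97, edgeR adjusted p = 0.00292). The 7 fibroblast markers summed to 300 to 1260 CPM in HER2-negative and 24.6 to 70.5 CPM in HER2-positive libraries, with Lum at 0 counts in all. Their part in the Ddr2 and collagen levels was not tested.

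Of 13 tested partners, sheddases, phosphatases and ubiquitin ligases, 6 were lower and none higher (median -1.14). They included Plxnb1, the plexin that associates with Met and Mst1r (4.92 ± 7.31 against 116 ± 32.6 CPM, log2 fold change -4.57, SE 1.01, edgeR adjusted p = 0.00301), Ptprj, a phosphatase that acts on Met (21.1 ± 10.3 against 274 ± 104 CPM, -3.71, SE 0.39, edgeR adjusted p = 2.82e-05), and the integrin chains Itgb4 (-1.60) and Itga6 (-1.78). Of 17 adaptors, 2 were higher and 2 lower (median -0.35), among them Gab2 (46.3 ± 9.14 against 17.2 ± 4.95 CPM, 1.42, SE 0.21), Nck2 (52.1 ± 14.9 against 457 ± 81.7 CPM, -3.14, SE 0.22) and Nck1 (17.9 ± 3.87 against 67.7 ± 30.9 CPM, -1.92, SE 0.28). Gab1, the main docking protein of Met, had -0.98 and was not called, just short of the fold minimum.

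Of 14 genes that report or restrain MAP kinase signalling, 1 was higher and 6 lower (median -0.28). The transcription factor Fosl1 rose (232 ± 151 against 2.72 ± 2.24 CPM, log2 fold change 6.40, SE 0.76, edgeR adjusted p = 5.74e-05), while the phosphatase Dusp6 (159 ± 47.1 against 507 ± 159 CPM, -1.68, SE 0.25, edgeR adjusted p = 0.000231) and the ETS factor Etv4 (54.3 ± 11.5 against 149 ± 36.6 CPM, -1.46, SE 0.20, edgeR adjusted p = 0.000154) fell. Of 30 other receptor tyrosine kinases tested, 5 were higher and 15 lower (median -1.33), led by Ror2 (log2 fold change 6.66, SE 1.10) and Pdgfrb (4.02, SE 1.53) upwards and by Ntrk2 (-7.32, SE 1.29) and Epha7 (-5.81, SE 1.23) downwards, with edgeR adjusted p between 0.00049 and 0.0452.

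**Figure D5:**
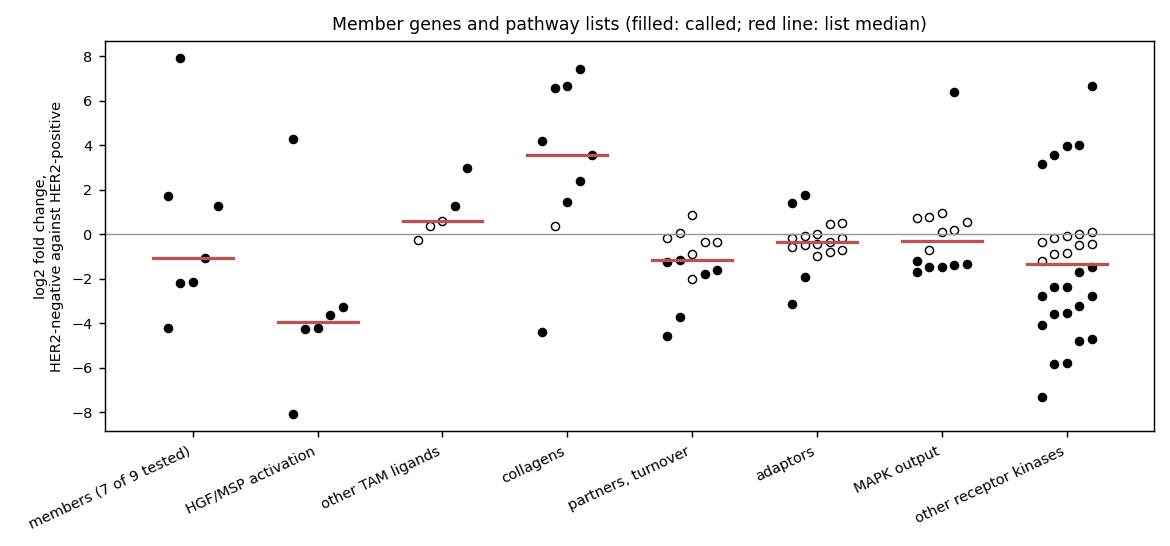
Log2 fold change of HER2-negative against HER2-positive libraries for the tested members and for 7 lists of genes that act with them. Each point is a gene, filled where called by edgeR, and the red line is the median of the list. Collagens lie mostly above 0 (median 3.59), and the processing genes of Hgf and macrophage-stimulating protein mostly below (median -3.91).

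As a description over the 11 libraries, which form few clusters, the genes most like each tested member in log2(CPM + 0.5) were listed by Pearson's r. For Gas6 they were St14 (0.997), Celsr2 (0.996) and Spint2 (0.996), so that 2 of the processing genes above shared its pattern. For Ddr2 they were Colec12 (0.998), Katnal1 (0.996) and Bcat1 (0.995), for Ddr1 Cdc26 (0.997), Sntb1 (0.994) and Lfng (0.993), and for Tyro3 Foxa1 (0.988), Ttc6 (0.983) and Camkk2 (0.982). For Met the nearest were Zfp13 (0.98) and Reep3 (0.979), for Axl 1190007I07Rik (0.97), Arl6 (0.967) and Nedd4 (0.967), and for Mertk Fchsd2 (0.97), Pank1 (0.967) and Slc1a2 (0.964). Of the 27 genes in the lists of all 9 members, 3 were again among the nearest by Spearman's rho. Between 706 and 1098 genes exceeded an r of 0.9 for each of Gas6, Tyro3, Ddr1 and Ddr2, against 42 for Mertk, 197 for Met and 212 for Axl.

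Some reads cannot be assigned with certainty, since the library kit keeps no strand. In GENCODE M21, Mertk overlaps the antisense gene Gm14011, Ddr1 overlaps Gm4577, Ddr2 overlaps 3110045C21Rik and Gas6 overlaps the coding gene Tmem255b on the other strand. Of 75-base stretches, 5.65% in Hgf, 2.87% in Ddr1 and 0.429% in Ddr2 also occur in other transcripts, and none do in Met, Mst1r, Axl, Mertk, Tyro3 or Gas6.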

How the data were processed

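The authors sequenced 75-nucleotide single-end TruSeq reads and obtained counts with STAR 2.5 and RSEM 1.3.0 on mm10, as the methods and the submitters' processing notes state. The deposited counts are whole numbers and not normalized. The annotation and any filter on low counts are not given in the sources used here. Groups follow the sample labels, with HER2 status and the clone taken from the methods. The labels do not say which cultures were independent, so p-values measure only the spread between these samples, which may be technical.

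Genes were kept by filterByExpr (minimum count 10, minimum total 15), libraries scaled by TMM, and each gene tested with glmQLFit and glmQLFTest of edgeR 4.0.16 in R 4.3.3, with calls at a Benjamini-Hochberg adjusted p (over all genes tested) below 0.1 and a log2 fold change of 1 or more in size. The prior count was 0.125. SE is the absolute log2 fold change over the square root of F. Comparisons within tumor B or of untreated MamBo43 are contrasts of a model of 4 groups, in which the lone library is assumed to vary like the others. CPM per kilobase uses the union of exons. Folds against a group at 0 use 3 counts per library. Such floors and the Poisson intervals cover counting error only, as no molecular identifiers were used. The fits of HER2-negative against HER2-positive libraries, MamBo43 TRT against untreated MamBo43 and trastuzumab within MamBo89 were first tested on simulated data. The other fits were not.

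Besides the 9 members, the text names mouse Erbb2, up to 2 called genes per direction and pathway list whose groups do not overlap, and the 3 genes most like each tested member. St14, Spint1, Spint2, Pros1, Ggcx, Vkorc1, Itgb4, Itga6 and Gab1 fall outside this rule and were chosen after their values were seen. Members and lists were chosen with earlier results of these data known. Coordinates are from GENCODE M21 (GRCm38), with 21804 of 21846 genes found, and promoters from RefSeq (GRCm38.p6). Alternatives were DESeq2 1.42.0, RLE size factors, other filters and thresholds, covariates, subsets of libraries, summed counts and leaving out each library. One gene that the likeness rule named is not reported here.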

Additional observations from a re-analysis of the deposited data

Results flagged for a closer look

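Single libraries stood apart from their group in 5 of 35 groups of 4 to 6 libraries examined. The limit used would flag about 1 in 20 separate groups by chance. As the groups examined overlap, the number of flags cannot be set against that rate. Among HER2-positive libraries, untreated MamBo43 was the high one for Axl (326 CPM, the nearest other library being at 69.8 CPM). It was also flagged for Hgf with 1 count (0.0391 CPM, the others being at 0), where any lone count gives a flag. The untreated MamBo38 culture with the library code of the other lines was high for Mertk (15 CPM, the nearest at 3.34 CPM), both among MamBo38 and among all HER2-negative libraries. The AG3 culture was high for Ddr2 among MamBo89 libraries (9.2 CPM, the nearest at 0.322 CPM).

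The change from untreated to trastuzumab-treated libraries differed between lines for some members by a test of the difference itself. This test was an alternative added after the data were seen (27 tests on members, each adjusted over all genes). The treated MamBo43 libraries were HER2-negative and the untreated library HER2-positive, so the MamBo43 change mixes drug exposure with loss of HER2. Which of them the values reflect was not tested. In MamBo43 minus MamBo89, where 22.2% of all genes passed, the log2 difference was -3.87 for Mertk (SE 1.23, edgeR adjusted p = 0.0674), -1.20 for Tyro3 (SE 0.29, edgeR adjusted p = 0.0291), -3.28 for Gas6 (SE 0.62, edgeR adjusted p = 0.0145), -2.55 for Ddr1 (SE 0.37, edgeR adjusted p = 0.0065) and 12.87 for Ddr2 (SE 2.16, edgeR adjusted p = 0.0101). The Ddr2 value includes treated MamBo89 libraries of 1 and 2 counts and the AG3 culture as a control, and its size is no bound.

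In MamBo43 minus MamBo38, where 19.6% of all genes passed, it was -1.01 for Tyro3 (SE 0.29, edgeR adjusted p = 0.0542), -3.05 for Gas6 (SE 0.78, edgeR adjusted p = 0.0376), -2.39 for Ddr1 (SE 0.37, edgeR adjusted p = 0.00649) and 7.17 for Ddr2 (SE 1.61, edgeR adjusted p = 0.0239). MamBo38 had already lost HER2 before treatment. In MamBo89 minus MamBo38, where 0% of all genes passed, no member was called. The Ddr2 difference there was -5.7 (SE 1.86). Each value that includes MamBo43 rests on its lone untreated library.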

How the results depend on the processing

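The number of genes called between HER2-negative and HER2-positive libraries was 2597 with at least 10 counts required in every library and 4 with counts summed per line and status, against 4052. Of the 7 members called, 3 were called with the tumor in the fit (Mertk, Ddr1 and Ddr2) and 4 with the library code in the fit. Another 2 fits called 3 in untreated libraries only (Gas6, Ddr1 and Ddr2, with Hgf called besides) and 0 with summed counts. Genes called in these fits numbered 3273 and 3760 of 12364, 3477 of 12848 and 4 of 13399. With summed counts Ddr2 was at 7.65, Ddr1 at -2.26, Axl at 0.7 and Met at 0.52. In tumor B only, with 1 HER2-positive library, Ddr2 was at 7.33, Ddr1 at -2.44, Gas6 at -4.74, Mertk at -2.81 and Tyro3 at -0.96. Smaller numbers of libraries entered the untreated, summed and tumor B fits. Met and Axl reversed, to -0.05 and -0.14 with the tumor in the fit and to -0.08 and -0.17 in tumor B only. DESeq2 gave no p for Axl and Ddr2.

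For untreated MamBo43 against MamBo89, a fit of these groups alone called 1697 genes against 2604 and 1 member (Axl) against 2, and libraries of the shared code also gave 1 member. Within MamBo89 and MamBo38, where edgeR called no gene for trastuzumab, DESeq2 called 9 and 5 genes, and the MamBo38 libraries of the code found in that line only gave 8. Leaving out 1 library at a time gave 0 to 2296 genes and 0 to 3 members in MamBo89, the highest without the parental untreated culture, and 0 to 1057 genes and 0 to 2 members in MamBo38, the highest without the untreated culture of that code.

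The other reversals were in differences that were not called, and their causes were not tested. Among libraries of the shared code Axl was 0.19 in MamBo38 against untreated MamBo43, and Mst1r was 0.21 and Ddr1 -0.11 in MamBo43 TRT against MamBo38. In MamBo38 libraries of the code found in that line only, the trastuzumab difference was -0.48 for Hgf, 0.17 for Axl, 0.59 for Mertk, -0.03 for Tyro3 and 0.54 for Gas6. With 1 library left out, Met in MamBo38 against untreated MamBo43 ranged from -0.01 to 0.23, and Mst1r from -0.79 to 0.44 and Ddr1 from -0.12 to 0.30 in MamBo43 TRT against MamBo38. Under trastuzumab within MamBo89, Axl ranged from -1.98 to 1.39 and Gas6 from -0.28 to 0.73. Within MamBo38, Hgf ranged from -0.48 to 1.46, Axl from -0.28 to 0.17, Mertk from -2.23 to 0.59, Tyro3 from -0.03 to 0.19, Gas6 from -0.56 to 0.54, Ddr1 from -0.16 to 0.31 and Ddr2 from -0.16 to 0.15. Of 748 recomputed values and counts, 643 kept their direction and their side of the threshold, or stayed within 1.5 times a count.

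No paired analysis was possible because the labels give no replicate numbers. Depth limits Mst1r and, outside MamBo38, Hgf, and the number of cultures limits the rest. Tumor B has a single HER2-positive library, so that its own spread is unknown.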
